A study of Mus musculus with 2 samples.

Results

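The cells described here are heart macrophages sorted for the reporter of a p16 strain and split by whether a molecule of Cdkn1a RNA was caught in them. Cdkn1a encodes p21, an inhibitor of cyclin-dependent kinases. Droplet single-cell RNA sequencing (10x Genomics 3' kit, version 3) was run on mCherry+ cells that flow cytometry sorted from the hearts of C57BL/6 p16-FDR mice aged 20 to 22 months. These mice carry an FLP recombinase and a diphtheria toxin receptor fused with mCherry. The strain is named for p16, the product of Cdkn2a, whose activity the reporter is built to mark. The labels give 2 samples of 1 group, and no comparison group is analysed here, so every cell comes from this reporter strain and this gate. Cell names carry 2 prefixes, called Heart1 and Heart2 here. They do not say which sample record a library is or whether the libraries came from separate animals, so the p-values below measure only the spread between these libraries, which may be technical.

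A cell was called a macrophage where the mean deposited value of Lyz2, C1qa, C1qb and Fcer1g, on a natural log scale, was at least 1.5 and above the mean of the fibroblast genes Dcn, Col1a2, Lum and Col3a1. This gave 247 macrophages among 1426 cells, 37 of 266 in Heart1 and 210 of 1160 in Heart2. Of these, 97 had at least 1 Cdkn1a UMI (unique molecular identifier, the tag that counts an RNA molecule once) and 150 had none. They fell as 19 with and 18 without in Heart1, and as 78 with and 132 without in Heart2. The lowest macrophage mean inside the rule was 3.38 in Heart1 and 2.86 in Heart2, and the next cells below it in Heart1 stood at 0.521 and 0.280, so no cell lay near 1.5. The 2 libraries hold 3304045 and 10632723 UMIs over 15247 genes. In Heart1, 1 further cell passed 1.5 but had a fibroblast mean at least as high, and was left out. The largest fibroblast mean of a cell kept was 0.223 in Heart1 and 2.35 in Heart2. The libraries shared 0 cell barcodes. Cdkn1a and the 8 genes of the rule chose the cells, so their values are description only and were not tested.

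In a macrophage p21 can follow the tumour suppressor p53 after DNA damage, and it can also follow p53-independent signals such as Kruppel-like factors and early response factors. It holds the cell cycle in check and is one of the RNAs most often used, beside p16, to look for senescent cells. Heart macrophages differ among themselves in the class II molecules of the major histocompatibility complex (MHC), which present peptides to CD4 T cells, and they answer stress within minutes through immediate early genes, NF-kB feedback genes and chemokines. Cell isolation itself can switch on the early genes.

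The stretches before the start sites of a few of these genes show the letters that their best known regulators read. Each is the end of the RefSeq promoter window (GRCm38.p6) up to the base before the annotated start, 5' to 3' on the gene's strand. Gene coordinates elsewhere are from GENCODE (GRCm38), whose starts differ: that of Cdkn1a is 29090976, and that of H2-DMb1 is 34153072, ahead of the boxes marked here. The motifs were chosen after the sequences had been seen, were searched on both strands, and a match is a description of letters, not a site in use. For Cdkn1a, the gene on which the cells were split, capitals mark a pair of p53 half-site cores (CATG, then any 6 bases, then CATG), which 0.712% of 32851 promoter windows hold. For H2-Aa, H2-Eb1 and H2-DMb1, which were lower beside Cdkn1a, capitals mark an X box (CTNGNAAC) followed by a Y box (TGATTGG). The boxes are read by the RFX and NF-Y factors with which the class II transactivator CIITA works, and they stand in this order within 50 bases in 33 windows (0.101%). The 2 windows of H2-DMa, which was past 1.5-fold lower too, do not hold the pair. Singly, the X box letters are in 13.2% and the Y box letters in 7.82% of the windows. For Nfkbia, which was higher, capitals mark an NF-kB motif (GGG, then any 3 bases, then TTCC, here on the other strand), found in 5.55% of the windows. The windows of the other genes called higher, Atf3, Ier3, Junb, Dusp1, Zfp36, Ccl3 and Ccl12, do not hold it, and Ccl4 has no window.
Cdkn1a, chr17:29090729-29090978, plus strand: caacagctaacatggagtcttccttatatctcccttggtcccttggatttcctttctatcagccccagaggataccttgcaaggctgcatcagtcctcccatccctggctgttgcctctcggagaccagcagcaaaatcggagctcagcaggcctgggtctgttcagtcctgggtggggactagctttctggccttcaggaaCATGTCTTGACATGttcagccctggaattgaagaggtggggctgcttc
H2-Aa, chr17:34287824-34287973, minus strand: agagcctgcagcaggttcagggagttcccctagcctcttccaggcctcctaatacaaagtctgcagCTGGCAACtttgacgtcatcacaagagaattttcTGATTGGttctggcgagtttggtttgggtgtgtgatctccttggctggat
H2-Eb1, chr17:34305717-34305866, plus strand: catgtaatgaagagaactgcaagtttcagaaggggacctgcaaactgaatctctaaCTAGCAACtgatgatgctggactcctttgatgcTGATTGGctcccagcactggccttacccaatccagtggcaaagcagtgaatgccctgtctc
H2-DMb1, chr17:34153041-34153190, plus strand: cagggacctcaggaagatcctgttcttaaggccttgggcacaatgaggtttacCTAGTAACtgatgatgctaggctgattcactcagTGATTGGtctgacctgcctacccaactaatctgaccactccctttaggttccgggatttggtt
Nfkbia, chr12:55492648-55492797, minus strand: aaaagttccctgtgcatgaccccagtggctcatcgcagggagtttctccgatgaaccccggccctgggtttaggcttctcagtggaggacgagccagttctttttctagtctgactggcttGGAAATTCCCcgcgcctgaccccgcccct

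The macrophage label held against markers that the rule did not use. Csf1r, the receptor for macrophage colony-stimulating factor, had a UMI in 37 of 37 and 209 of 210 cells, and Cd68, a lysosomal glycoprotein of macrophages, in 35 of 37 and 205 of 210. Of 12 identity markers 11 passed the filter of a mean of at least 50 CPM (counts per 1000000: a gene's UMIs over all UMIs of the cell), and 0 were at least 1.5-fold higher or lower with Cdkn1a in both libraries. Cd3e, Cd3d, Cd3g, Trac, Trbc2, Cd8a and Nkg7 of the T and NK cell list, and Cd79a, Ms4a1 and Pax5 of the B cell list, were at 0 UMIs in the 247 cells. The summed level of the 9 T and NK cell markers in the table was 53.1 against 22.3 CPM with and without Cdkn1a in Heart1 and 30.2 against 16.4 CPM in Heart2. The 8 fibroblast markers outside the rule summed to 199.9 against 181 CPM in Heart1 and 324 against 447 CPM in Heart2. The 9 cardiomyocyte markers summed to 85.9 against 621 and 112 against 192 CPM, so their sum was higher without Cdkn1a. Of them 1 passed the filter, at a log2 difference (with minus without) of -3.46 in Heart1 and -0.40 in Heart2. With the highest cell of each group left out no cardiomyocyte marker passed it. The part of this RNA in the results below was not tested.

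Cdkn1a RNA was common in these cells, and finding it depended on depth. The gene lies on chromosome 17 at 29090976 to 29100727 (GRCm38, plus strand). It was found in 51.4% (34.4 to 68.1%) of macrophages in Heart1 and 37.1% (30.6 to 44.1%) in Heart2 (exact binomial intervals, which cover counting error only). The fibroblasts of the same libraries, chosen by the mirrored rule, had it in 48.5% (41.5 to 55.6%) of 206 and 29.2% (26.3 to 32.2%) of 939 cells. No class in these data is known to lack Cdkn1a, so the share that free RNA alone would give was not measured. Macrophages with Cdkn1a were sequenced deeper, with median totals of 10149 against 6445 UMIs in Heart1 and 10370 against 9428 in Heart2. From the shallowest to the deepest tercile of the cells the share with Cdkn1a was 23.1, 58.3 and 75% in Heart1 and 30, 35.7 and 45.7% in Heart2. Thinned to 3000 UMIs in every cell, which left out 0 cells, it was 37.8% and 21% in macrophages and 27.7% and 18.0% in fibroblasts. Most positive cells held more than 1 molecule: 13 of 19 and 52 of 78 had at least 2 UMIs, and the most in a cell were 21 and 22. Positive cells of Heart1 held from 67.2 to 1394 CPM, on average 497, and those of Heart2 from 67.9 to 1887 CPM, on average 392. Mitochondrial shares had medians of 4.71% with against 4.25% without in Heart1 and 5.22% against 5.99% in Heart2. Because of the depth gap the main comparisons below use the mean over cells of each cell's own CPM. In this mean a cell counts the same whatever its depth. Depth-matched cells (14 pairs in Heart1, 78 in Heart2) and thinned cells stand beside it where they matter. Depth-matched values sum the UMIs over a group's cells before scaling, so deeper cells weigh more and the measure differs from the main one. After matching, median totals were 8534.5 UMIs with against 7119 without in Heart1 and 10370 against 10289 in Heart2.

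**Figure D1:**
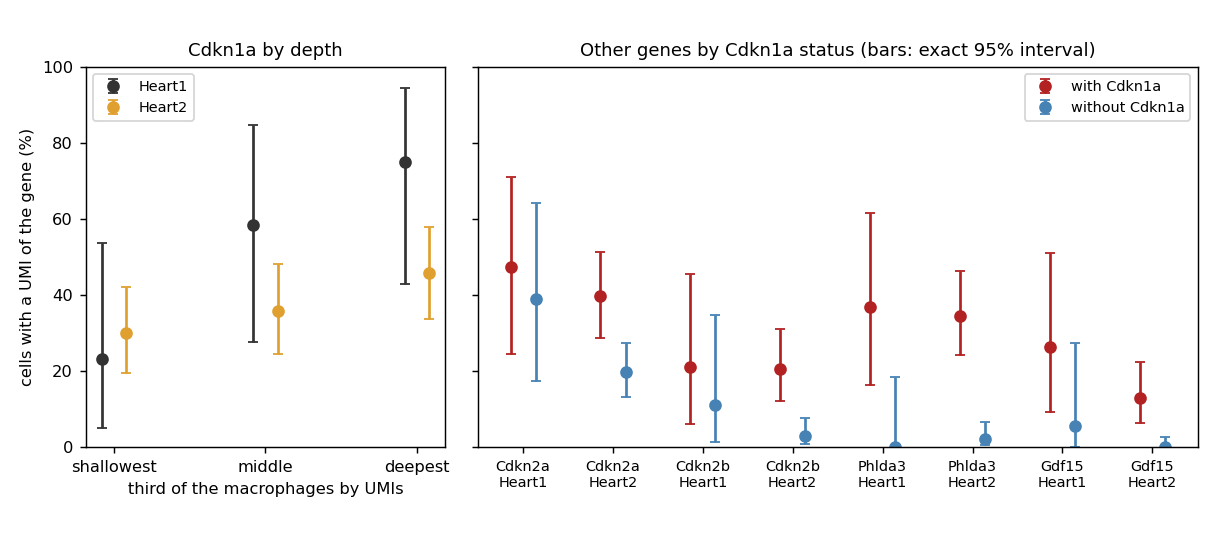
Left, share of macrophages with a Cdkn1a UMI (percent, y axis) in each tercile of the cells by UMI total (x axis) for Heart1 and Heart2. Right, share of macrophages with a UMI of 4 other genes, split by Cdkn1a status and library, with exact 95% binomial intervals. The Cdkn1a share climbs from 23.1 to 75% and from 30 to 45.7%, and Phlda3 was seen in 36.8 and 34.6% of cells with Cdkn1a against 0 and 2.27% of those without.

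Over all 2907 genes tested the macrophages with Cdkn1a carried less RNA of 4 MHC class II genes and more of 5 early response genes, 3 chemokines and the NF-kB inhibitor Nfkbia. Of the early response genes, Atf3 and Ier3 passed the filter of 50 CPM only through the cells with Cdkn1a, so their calls are description only. Limma with library as a block called 13 genes at an adjusted p under 0.05 (Benjamini-Hochberg over all genes, 0.447% of those tested), 9 higher (0.31%) and 4 lower (0.138%). 248 genes had an unadjusted p under 0.05. The fit has 1 residual degree of freedom and borrows 6.53 from the spread of all genes, so its p-values lean on that pooled spread. Without a test, 71 genes (2.44%) were at least 1.5-fold apart in the same direction in both libraries, 58 higher (2.0%) and 13 lower (0.447%), and 5 were past that fold in opposite directions. In simulated data a like share of unchanged genes met this criterion, so the count alone is no evidence of change and serves to describe the lists. Heart1, with 37 macrophages, had 806 genes past the fold and Heart2 had 140. All 13 genes that limma called were among the 71. The median difference over all genes was 0.05 in Heart1 and 0.07 in Heart2 on the log2 scale. Differences throughout are with minus without, of log2(mean CPM + 20), which understates the change of low genes.

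**Figure D2:**
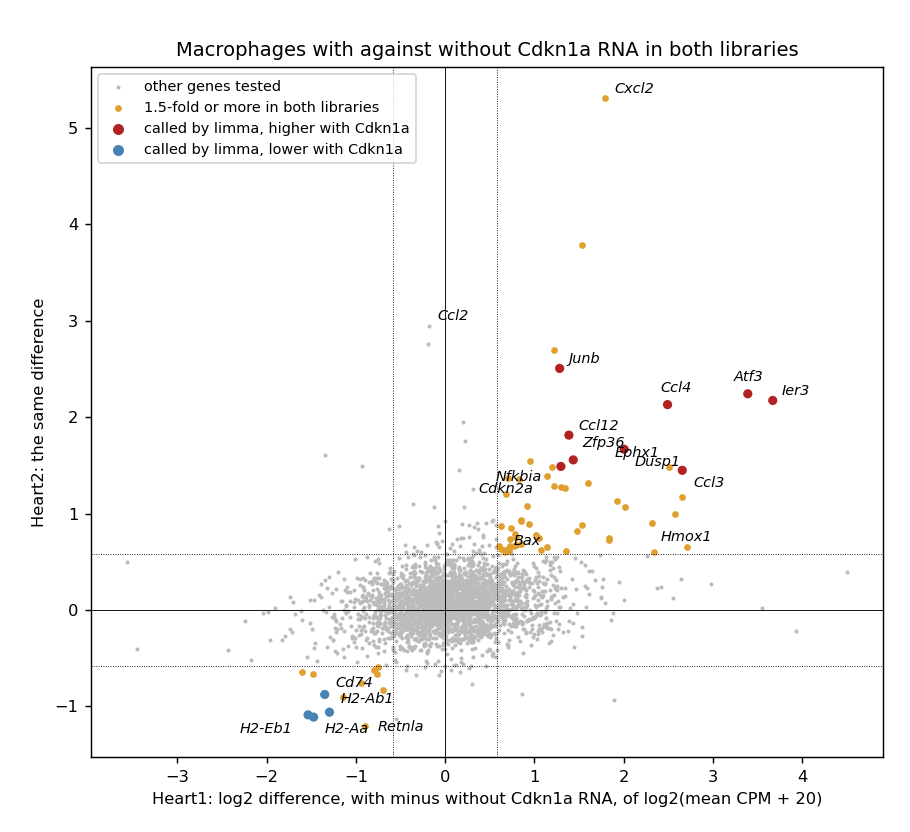
Each point is 1 of 2907 genes, with its log2 difference between macrophages with and without Cdkn1a RNA in Heart1 (x axis) and Heart2 (y axis), and dotted lines at 1.5-fold. The 4 called genes at the lower left are MHC class II genes, between -1.54 and -1.30 in Heart1 and between -1.11 and -0.88 in Heart2, and the 9 called genes at the upper right are early response, chemokine and feedback genes.

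The 4 genes called lower were all MHC class II genes. H2-Aa, the alpha chain of the I-A molecule, averaged 3359.8 CPM with Cdkn1a against 9373 CPM without in Heart1 and 3867 against 8373 CPM in Heart2. H2-Ab1, its beta chain, averaged 3614 CPM with Cdkn1a against 8906 CPM without in Heart1 and 4203 against 8781 CPM in Heart2. H2-Eb1, the beta chain of I-E, averaged 3794 CPM with Cdkn1a against 11043 CPM without in Heart1 and 4487 against 9555 CPM in Heart2. In both libraries the cells with Cdkn1a held less than the cells without for all 3 genes. Cd74, the invariant chain that guards the groove until a peptide is loaded, averaged 11166 CPM with Cdkn1a against 28487 CPM without in Heart1 and 14399 against 26444 CPM in Heart2. The log2 difference of H2-Aa was -1.47 in Heart1 and -1.11 in Heart2, mean -1.29 ± 0.12 SE (limma adjusted p 0.00602). That of H2-Ab1 was -1.30 in Heart1 and -1.06 in Heart2, mean -1.18 ± 0.10 SE (adjusted p 0.00602), that of H2-Eb1 -1.54 in Heart1 and -1.09 in Heart2, mean -1.31 ± 0.12 SE (adjusted p 0.00618) and that of Cd74 -1.35 in Heart1 and -0.88 in Heart2, mean -1.11 ± 0.11 SE (adjusted p 0.00804). None of the 4 lost its call when predicted doublets or the highest cell of each group were left out. Those fits borrowed more from the spread of all genes than the main fit did. They borrowed 10.05 degrees of freedom without doublets and an unlimited number without the highest cells, against 6.53. They called 32 and 87 genes in all, against 13, so keeping a call there is a weak check. All 4 calls ended where library was not a block and where cells with at least 2 Cdkn1a UMIs were set against those with none, settings in which limma called 0 genes, and H2-Aa was then at -2.39 and -1.38 in the latter. H2-Aa, H2-Ab1 and H2-Eb1 lie side by side on chromosome 17 (34257689 to 34316674, GRCm38), and Cd74 lies on chromosome 18.

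The peptide-loading genes pointed the same way without being called. H2-DMb1, a chain of the DM molecule that exchanges peptides, averaged 336 CPM with Cdkn1a against 767 CPM without in Heart1 and 368 against 707 CPM in Heart2 (-1.15 in Heart1 and -0.91 in Heart2, mean -1.03 ± 0.17 SE, limma adjusted p 0.0719). Its near copy H2-DMb2 had at most 10.5 CPM in a group, and reads could be split between them. H2-DMa averaged 485 CPM with Cdkn1a against 799 CPM without in Heart1 and 409 against 741 CPM in Heart2 (-0.70 in Heart1 and -0.83 in Heart2, mean -0.76 ± 0.16 SE, adjusted p 0.157). Ciita, which encodes the class II transactivator, averaged 53.2 CPM with Cdkn1a against 127 CPM without in Heart1 and 56.8 against 80.4 CPM in Heart2 and was not past 1.5-fold in Heart2. Of the 10 list members 9 were tested, and 6 were at least 1.5-fold lower in both libraries with a list median of -1.03, against 0.447% lower and a median of 0.07 over all genes. Cd86, a costimulatory ligand, was the member with differences of opposite sign, -0.10 and 0.49, and the cathepsin gene Ctss stood at -0.56 and -0.43. B cells and dendritic cells also carry class II. The B cell markers summed to 186 against 354 CPM with and without Cdkn1a in Heart1 and 313 against 403 in Heart2, most of it Ighm, and the dendritic cell markers to 227 against 204 and 325 against 349.7 CPM. The part of these RNAs was not tested.

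Class II RNA was not evenly low in these cells. The summed level of H2-Aa, H2-Ab1, H2-Eb1 and Cd74 had a median of 2985 CPM in the cells with Cdkn1a (interquartile range 67.6 to 32833) against 58772 CPM without (14113 to 89552) in Heart1. In Heart2 it was 5368 CPM (130.3 to 44277) against 35404 CPM (1512 to 97769.7). Each group held cells at 0 and its highest cell stood between 107754 and 171765 CPM, so the groups overlapped and differed in how many cells were low. Ranked by this sum, the Cdkn1a share from the lowest to the highest tercile was 69.2, 58.3 and 25% in Heart1 and 50, 37.1 and 24.3% in Heart2. The terciles low in class II were also the deepest, with median totals of 12532, 9021 and 5670 UMIs in Heart1 and 11832, 9547 and 7228 in Heart2. Thinned to 3000 UMIs, the same terciles gave 53.8, 33.3 and 25% and 25.7, 20 and 17.1% in the same order. In depth-matched cells the 4 genes were again lower, at -1.18 and -1.06 for H2-Aa and at -1.09 and -0.84 for Cd74 in Heart1 and Heart2, and 4 of the 9 members tested were past 1.5-fold lower in both, against 0.444% of all genes. With Cdkn1a status read after thinning H2-Aa was at -0.93 and -0.71 and Cd74 at -0.81 and -0.59, and again 4 members were past the fold, against 0.342% of all genes. Cells with at least 2 Cdkn1a UMIs averaged 12736 CPM of the sum in Heart1 and 23240 in Heart2, cells with 1 UMI 41859 and 34386, and cells with none 57808 and 53153. This order stood in both libraries, as did the order of depth (medians of 11008, 8694 and 6445 UMIs and 10386, 9997 and 9428).

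**Figure D3:**
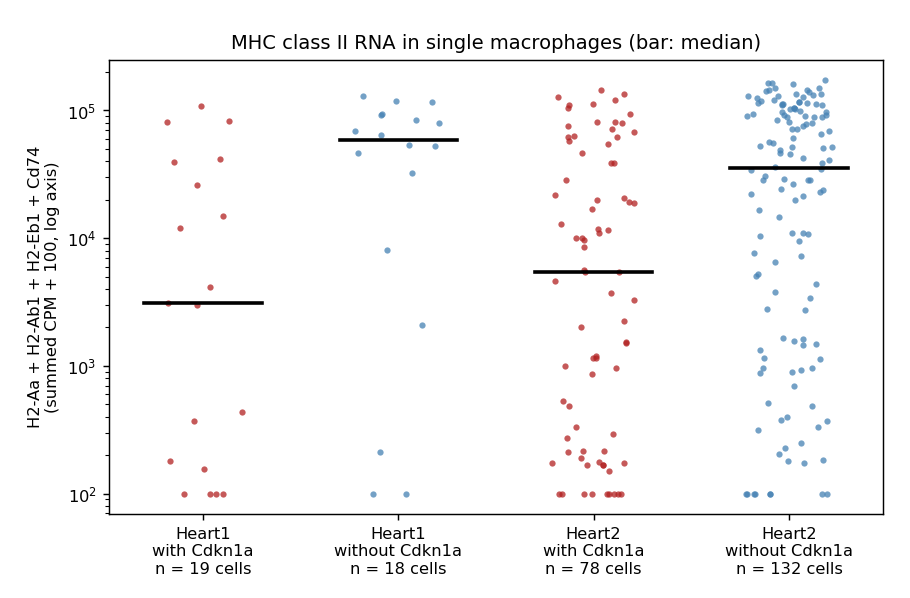
Summed CPM of H2-Aa, H2-Ab1, H2-Eb1 and Cd74 plus 100 in each of the 247 macrophages (log y axis), by library and Cdkn1a status, with a bar at the median. The medians with Cdkn1a are 2985 and 5368 CPM and without it 58772 and 35404 CPM, and every group spans from 0 to at least 107754 CPM.

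Of the early response genes 5 were called higher beside Cdkn1a, and UMIs of 2 of these, Atf3 and Ier3, were found in a minority of cells. Atf3, a stress-induced transcription factor, averaged 568 CPM with Cdkn1a against 36.1 CPM without in Heart1 and 128 against 11.3 CPM in Heart2 (3.39 in Heart1 and 2.24 in Heart2, mean 2.82 ± 0.31 SE, limma adjusted p 0.0123). It had a UMI in 9 of 19 against 4 of 18 cells in Heart1 and in 20 of 78 against 9 of 132 in Heart2. Ier3, an early gene that tempers cell death, averaged 333 CPM with Cdkn1a against 7.71 CPM without in Heart1 and 316 against 54.5 CPM in Heart2 (3.67 in Heart1 and 2.17 in Heart2, mean 2.92 ± 0.35 SE, adjusted p 0.0149). Both are induced within minutes of many stresses. In Heart2, where 26 of 78 and 39 of 132 cells had an Ier3 UMI, the difference lay in how much the positive cells held, with up to 141 UMIs in 1 cell. Junb, an AP-1 subunit, averaged 1150.2 CPM with Cdkn1a against 461 CPM without in Heart1 and 539 against 78.4 CPM in Heart2 (1.28 in Heart1 and 2.51 in Heart2, mean 1.89 ± 0.28 SE, adjusted p 0.0461). Dusp1, the phosphatase that shuts off stress kinases, averaged 416 CPM with Cdkn1a against 88.5 CPM without in Heart1 and 209.7 against 52.3 CPM in Heart2 (2.01 in Heart1 and 1.67 in Heart2, mean 1.84 ± 0.22 SE, adjusted p 0.0149). Zfp36, the protein that destabilises cytokine messenger RNA, averaged 367 CPM with Cdkn1a against 123 CPM without in Heart1 and 211 against 58.7 CPM in Heart2 (1.43 in Heart1 and 1.56 in Heart2, mean 1.5 ± 0.21 SE, adjusted p 0.0337). As the mean of both libraries, Atf3 and Ier3 stood under 50 CPM in the cells without Cdkn1a and passed the filter only through the cells with it. For all 5 genes the mean with Cdkn1a exceeded that without it in both libraries. Fos and Jun, their classical partners, were not called, at 1.20 and 0.44, and 1.65 and 0.41. Of the 27 members of the early response list 20 were tested, 8 were at least 1.5-fold higher in both libraries and 0 lower, with a list median of 1.09, against 2.0% higher over all genes. The other 3 of the 8 were Egr1, Klf4 and Klf6. In depth-matched cells 11 of the list were higher, against 1.91% of all genes, and with status read after thinning 3 were, against 1.61%. The Kruppel-like factors Klf4 (2.01 in Heart1 and 1.07 in Heart2, mean 1.54 ± 0.28 SE, adjusted p 0.0893) and Klf6 (1.35 in Heart1 and 0.61 in Heart2, mean 0.98 ± 0.22 SE, adjusted p 0.195), which are known to raise Cdkn1a transcription, were not called.

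Nfkbia and 3 chemokines were called higher as well. Nfkbia, the inhibitor that NF-kB itself switches on, averaged 469 CPM with Cdkn1a against 179 CPM without in Heart1 and 302 against 94.7 CPM in Heart2 (1.30 in Heart1 and 1.49 in Heart2, mean 1.39 ± 0.20 SE, limma adjusted p 0.0351). It was seen in 12 of 19 against 11 of 18 cells in Heart1 and in 46 of 78 against 59 of 132 in Heart2. It was the 1 member of the NF-kB feedback list past 1.5-fold in both libraries, of 7 tested, and the other 6 were not. Ccl4, an inflammatory chemokine, averaged 1117 CPM with Cdkn1a against 182 CPM without in Heart1 and 208 against 32.1 CPM in Heart2 (2.49 in Heart1 and 2.13 in Heart2, mean 2.31 ± 0.21 SE, adjusted p 0.00602), and 1 cell held 107 of its 162 UMIs with Cdkn1a in Heart1 and another 92 of 157 in Heart2. Without the highest cell of each group Ccl4 was at 1.65 and 1.11. Ccl3, its neighbour on chromosome 11 and a ligand of CCR1, averaged 649 CPM with Cdkn1a against 86.2 CPM without in Heart1 and 96.5 against 22.7 CPM in Heart2 (2.66 in Heart1 and 1.45 in Heart2, mean 2.05 ± 0.31 SE, adjusted p 0.0461). Ccl12, a mouse ligand of the monocyte receptor CCR2, averaged 548 CPM with Cdkn1a against 197 CPM without in Heart1 and 886 against 238 CPM in Heart2 (1.39 in Heart1 and 1.81 in Heart2, mean 1.60 ± 0.19 SE, adjusted p 0.0149) and had a UMI in 9 of 19 against 4 of 18 and 43 of 78 against 56 of 132 cells. Ccl4 and Ccl3 RNA was at 0 in all 1145 fibroblasts, which leaves room for up to 1.46% of cells with a UMI (3 cells over the number of cells) in Heart1 and 0.319% in Heart2. Of the 26 cytokines and chemokines listed 18 were tested, 7 were at least 1.5-fold higher in both libraries and 0 lower, against 2.0% and 0.447% of all genes (list median 1.06). Beside the 3 called these were Ccl7 (1.21 in Heart1 and 2.70 in Heart2, mean 1.95 ± 0.33 SE, adjusted p 0.0719), Tnf (1.60 in Heart1 and 1.32 in Heart2, mean 1.46 ± 0.38 SE, adjusted p 0.289), Cxcl2 and Cxcl10. Cxcl2 rested on 3 and 8 positive cells with Cdkn1a and Cxcl10 on 1 and 5, so both are few-cell values. A low gene can pass the filter through the group where it is high, so the count of 7 describes the list only. The CCR2 ligand Ccl2 differed between the libraries, with -0.18 in Heart1 and 2.95 in Heart2, and the Heart1 cells without Cdkn1a held 113 of their 135 Ccl2 UMIs in 1 cell. Il1b was at -0.57 and 0.11.

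**Figure D4:**
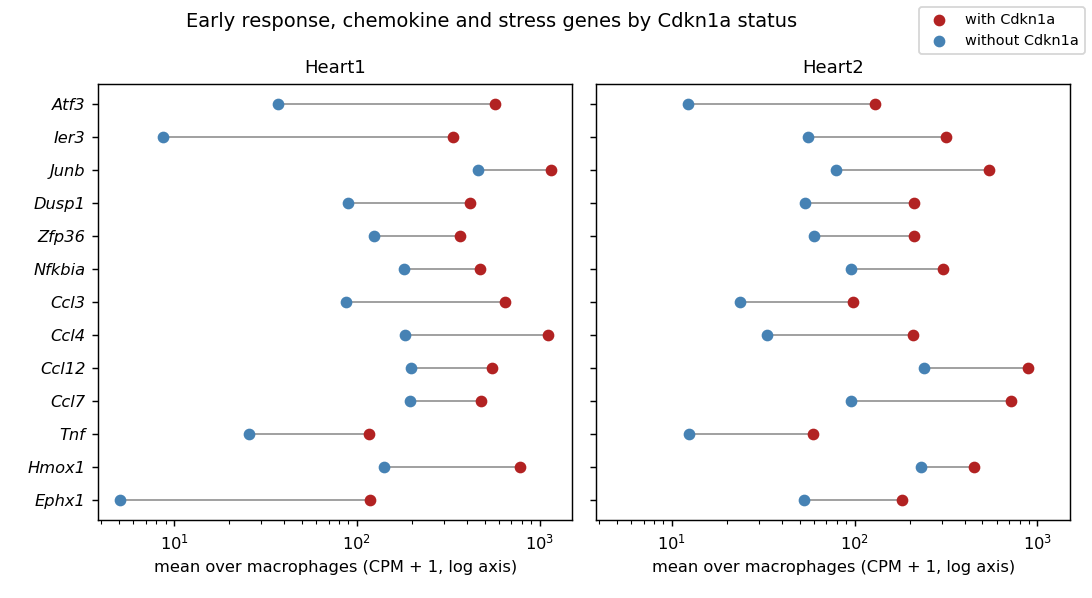
Mean level in macrophages with (red) and without (blue) Cdkn1a RNA in Heart1 (left) and Heart2 (right), as CPM + 1 on a log axis, for 13 early response, chemokine and stress genes. The red point lies to the right of the blue one for each of the 13 genes in both libraries.

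Much of the early response RNA was held by few cells. Over the 27 early genes the cell medians were close, 4335 CPM with against 3323 without in Heart1 and 4002 against 3346 in Heart2, while the highest cell stood at 90084 CPM in Heart1 and 37364 in Heart2, both with Cdkn1a. When the tercile of the macrophages with the highest sum was left out of each library, a choice made after the values were seen, 0 of 15 early genes tested were past 1.5-fold in both libraries (1.5% of all genes were higher and 0.921% lower there). Atf3 was then at -0.18 and 0.97, Dusp1 at 0.31 and -0.08, Zfp36 at -0.21 and 0.01 and Nfkbia at -0.32 and 0.38. Leaving these cells out lowers Atf3, Dusp1 and Zfp36 by construction, since they are part of the sum. Nfkbia is not part of it. Of the class II list 6 members were still past 1.5-fold lower without them, H2-Aa at -1.70 and -0.98, and Ccl12 was still higher, at 1.91 and 1.47. Ccl12 was then the 1 member past 1.5-fold higher of 14 cytokines and chemokines tested, against 7 of 18 in the main comparison. Of the NF-kB feedback list 0 of 4 were. Ranked by the early sum, the Cdkn1a share from the lowest to the highest tercile was 30.8, 58.3 and 66.7% in Heart1 and 25.7, 38.6 and 47.1% in Heart2, and thinned 15.4, 50 and 50% and 18.6, 17.1 and 27.1%. In depth-matched cells Atf3 was at 3.55 and 2.50, Junb at 1.80 and 2.91 and Zfp36 at 2.16 and 1.81. These values were not below the main ones, from which they differ in the cells used and in the measure. With the class II level evened between the groups, also a choice made after the values were seen, Atf3 was at 3.96 and 2.48 and Dusp1 at 1.49 and 1.64. For this the macrophages were cut into a lower and an upper part by class II sum, and the means of both parts were averaged with equal weight. In Heart1 the upper part held 5 cells with Cdkn1a and the lower part 5 without, so these Heart1 values lean on few cells. With status read after thinning, which moves 5 of 19 and 34 of 78 cells to the group without, the Heart1 differences shrank to 0.41 for Ier3, 0.33 for Junb, 0.18 for Dusp1, 0.04 for Zfp36 and 0.10 for Ccl3. In Heart2 they were then 2.87, 2.92, 2.38, 1.99 and 1.99. The Heart1 values of these 5 genes therefore hung on which few cells were called positive. What cell isolation adds to the early genes was not tested.

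Several p53 targets stood higher beside Cdkn1a, at low levels and mostly under the filter of 50 CPM. Of the 30 genes of the p53 list, 4 passed that filter and 1 of them, Bax, was at least 1.5-fold higher in both libraries. At a mean of at least 20 CPM 17 members were tested and 6 were higher and 0 lower, against 1.49% and 0.313% of 5755 genes, and the list median was 0.52 against 0.05. With no filter 28 were tested, 7 were higher and 0 lower, against 0.779% and 0.16% of 13090 genes. Limma called 2 of the 17 at 20 CPM, where it called 1.48% of all genes higher. A low gene can pass a filter through the group where it is high, so these counts describe the list and do not support a direction for it. With depth-matched cells 5 of the 17 were higher, with status read after thinning 7, and with the highest cell of each gene left out 6. The count was 3 of 17 without the highest early response tercile and 3 of 17 with class II evened between the groups. With status and values both thinned it was 5 of 17, and with no filter 1 member, Fas, was then lower.

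Phlda3, a p53 target that restrains AKT signalling, was the most divided of them. It had 14 UMIs in 7 of 19 cells with Cdkn1a and 0 in the 18 cells without in Heart1, where 0 leaves room for up to 16.7% of cells with a UMI by the same rule and says nothing of RNA that was not caught. In Heart2 it had 52 UMIs in 27 of 78 cells with and 3 UMIs in 3 of 132 without. The mean levels were 60.7 CPM with Cdkn1a against 0 CPM without in Heart1 and 60.6 against 2.60 CPM in Heart2, and the shares in Heart2 were 34.6% (interval 24.2 to 46.2%) and 2.27% (0.471 to 6.50%). After thinning both genes to 3000 UMIs the shares were 28.6% of 14 against 0 of 23 cells in Heart1 and 15.9% of 44 against 3.61% of 166 in Heart2. The log2 difference was 2.01 in Heart1 and 1.83 in Heart2, mean 1.92 ± 0.42 SE, with the SE from the limma fit at 20 CPM. The adjusted p was 0.00241 from a separate limma fit with no filter, which pools the spread over all genes. Where a group is at 0 UMIs the log2 difference depends on the pseudocount, and the gene reached 20 CPM only through the cells with Cdkn1a. Fibroblasts carried far more Phlda3, in 87.9% of 206 and 76.1% of 939 cells. Dcn, a fibroblast gene of the rule, was in 4 of 19 against 0 of 18 macrophages in Heart1 and in 22 of 78 against 26 of 132 in Heart2, at 110 against 122 CPM. In Heart1, then, Dcn RNA was found in cells with Cdkn1a and in none of the others, at 1 UMI a cell, while in Heart2 1 cell held 119 of 142 Dcn UMIs with Cdkn1a and another 209 of 240 without. The part of fibroblast RNA in the Phlda3 value was not tested. Gdf15, a secreted stress cytokine under p53 and stress-response control, had 9 UMIs in 5 of 19 against 1 UMI in 1 of 18 cells in Heart1. In Heart2 it had 82 UMIs in 10 of 78 cells, 45 of them in 1 cell, against 0 in 132, which allows a share of up to 2.27%. In fibroblasts it was in 2.91 and 2.02% of cells. It too reached 20 CPM only through the cells with Cdkn1a, and its adjusted p from limma with no filter was 0.00664. Without the highest early response tercile it was at 1.66 and 0.49.

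The other 4 members were less far apart, and limma called none of them. Trp53inp1, which promotes p53-driven death and autophagy, averaged 49.9 CPM with Cdkn1a against 6.62 CPM without in Heart1 and 36.2 against 4.36 CPM in Heart2 and was seen in 9 of 19 against 1 of 18 and 20 of 78 against 5 of 132 cells. Zmat3, a p53-induced RNA-binding protein, averaged 58.0 CPM with Cdkn1a against 0 CPM without in Heart1 and 22.9 against 7.86 CPM in Heart2. Bax, the pore former of mitochondrial apoptosis, averaged 343 CPM with Cdkn1a against 209 CPM without in Heart1 and 282 against 177 CPM in Heart2 (0.66 in Heart1 and 0.62 in Heart2, mean 0.64 ± 0.19 SE, adjusted p 0.413). Ccng1, cyclin G1, averaged 36.5 CPM with Cdkn1a against 17.2 CPM without in Heart1 and 74.2 against 37.6 CPM in Heart2, and in depth-matched cells its Heart2 difference was 0.33. Mdm2, the ligase that degrades p53, was level in Heart1 and higher in Heart2, where 39 of 78 against 27 of 132 cells had it (0.05 and 1.06). Trp53 itself stood at 0.56 and 0.21 (adjusted p 0.765). The promoter windows of Phlda3, Gdf15, Bax and Ccng1 did not hold the half-site pair printed above for Cdkn1a.

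**Figure D5:**
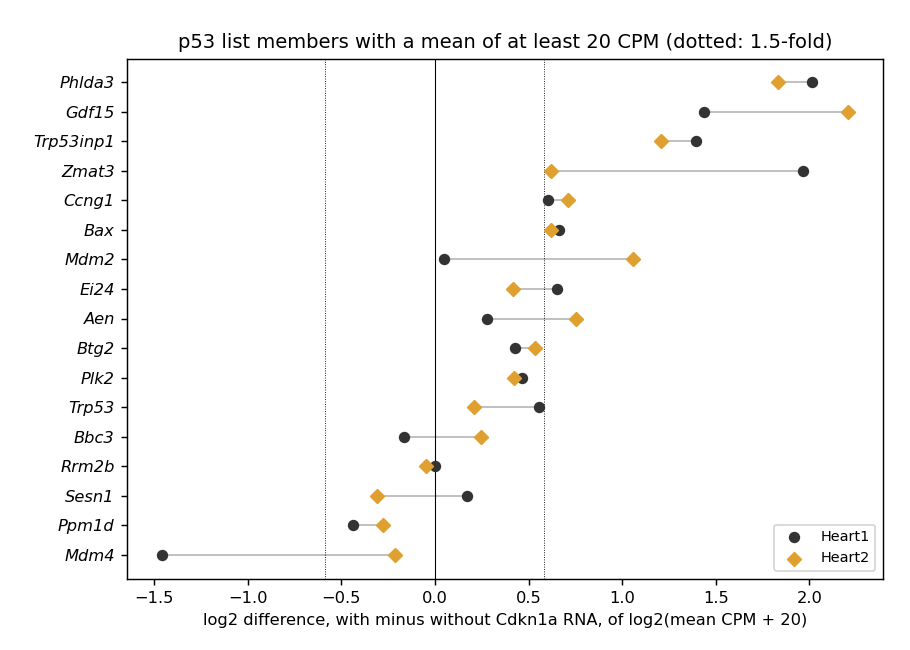
The log2 difference between macrophages with and without Cdkn1a RNA in Heart1 (circles) and Heart2 (diamonds) for the 17 members of the p53 list with a mean of at least 20 CPM, ordered by their mean, with dotted lines at 1.5-fold. Phlda3 and Gdf15 lie above 1.4 in both libraries, 6 members lie beyond the right dotted line in both, and none lies beyond the left line in both.

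RNA of the reporter gene's own locus was also more frequent beside Cdkn1a in Heart2. Cdkn2a, which encodes p16 and p19Arf averaged 156 CPM with Cdkn1a against 59.4 CPM without in Heart1 and 145 against 43.3 CPM in Heart2 (1.14 in Heart1 and 1.39 in Heart2, mean 1.27 ± 0.23 SE, limma adjusted p 0.0948), so it was past 1.5-fold in both libraries and not called. Its shares were 47.4% of 19 against 38.9% of 18 cells in Heart1 and 39.7% of 78 (28.8 to 51.5%) against 19.7% of 132 (13.3 to 27.5%) in Heart2. Thinned, they were 35.7% against 17.4% and 18.2% against 15.1%, so in Heart2 most of the gap was gone once both genes were read at 3000 UMIs. Fibroblasts had Cdkn2a in 35.0% of 206 cells in Heart1 (median depth 11882 UMIs), near the share in macrophages without Cdkn1a, and in 0.745% of 939 in Heart2 (8772 UMIs), far below both macrophage shares. In depth-matched cells the Cdkn2a differences were 1.92 and 1.10. Cdkn2b, which encodes p15 in the next gene of the locus, was seen in 4 of 19 against 2 of 18 and in 16 of 78 against 4 of 132 cells, and thinned in 2 of 14 against 1 of 23 and 2 of 44 against 3 of 166. Cdkn1b, encoding p27, was at -0.49 and -0.05. Of the 9 inhibitors listed beside Cdkn1a, 1 passed the filter.

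Of 18 proliferation genes 5 passed the filter, and 1 was past 1.5-fold higher in both libraries and 0 lower, against 2.0% and 0.447% of all genes. All 18 summed to 2135 against 856 CPM with and without Cdkn1a in Heart1 and 1690.1 against 1458 in Heart2, and the list median was 1.79 in Heart1 and 0.07 in Heart2. Mki67 had UMIs in 1 of 19 against 0 of 18 and 2 of 78 against 4 of 132 cells, and Top2a in 1 against 0 and 5 against 4. The gene past the fold was Tubb5, a tubulin, at 348 CPM with Cdkn1a against 82.8 CPM without in Heart1 and 253 against 143 CPM in Heart2 (limma adjusted p 0.181). With status read after thinning 3 of 5 were past the fold, and in depth-matched cells 0 of 6. Of 4 cyclins and partners tested 0 were past 1.5-fold in both libraries, with Ccnd1 at 0.75 and 0.58.

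Several gene lists, 2 of them of macrophage kinds, held no member past the fold in both libraries. Of 12 resident-type markers, such as Folr2 (0.36 and -0.02), the scavenger receptor Cd163 (0.46 and 0.12) and the mannose receptor Mrc1 (-0.03 and -0.10), 0 were past 1.5-fold in both libraries. Nor was any of 13 lipid-associated markers tested, of 16 lysosomal genes or of 10 mitochondrial transcripts. With 1 residual degree of freedom a miss does not show that the levels are equal. Ccr2, the receptor of recruited monocytes, went in opposite directions, 0.86 and -0.88.

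Further genes were past the fold in both libraries without being called. Ephx1, microsomal epoxide hydrolase, averaged 117 CPM with Cdkn1a against 4.05 CPM without in Heart1 and 181 against 51.7 CPM in Heart2 (2.51 in Heart1 and 1.49 in Heart2, mean 2.00 ± 0.33 SE, limma adjusted p 0.0719), and stayed at 2.73 and 1.86 without the highest early response tercile. Hmox1, the heme-degrading enzyme, averaged 779 CPM with Cdkn1a against 141 CPM without in Heart1 and 447 against 231 CPM in Heart2 (2.32 in Heart1 and 0.90 in Heart2, mean 1.61 ± 0.31 SE, adjusted p 0.107), and without that tercile was at 0.13 and 0.11. Ctla2a averaged 186 CPM with Cdkn1a against 63.7 CPM without in Heart1 and 74.3 against 18.9 CPM in Heart2 (adjusted p 0.123) and Ppp1r15a, which ends the integrated stress response, 107 CPM with Cdkn1a against 50.7 CPM without in Heart1 and 57.0 against 20.7 CPM in Heart2 (adjusted p 0.506). As the mean of both libraries, Ephx1, Ctla2a and Ppp1r15a stood under 50 CPM in the cells without Cdkn1a. They passed the filter only through the cells with it, so their place among these genes is description only. Of 10 interferon genes tested 3 were past 1.5-fold higher in both libraries, Isg15, Ifit3 and Ifi44, against 2.0% of all genes, and none was called. With status read after thinning 0 of 10 were past the fold (median -0.24), and without the highest cell of each group 0 of 5. In depth-matched cells 1 of 7 was past it, against 1.91% of all genes. Without the highest early response tercile 5 of 9 were, against 1.5% of all genes, so the count moved in both directions with the setting. In the cells with Cdkn1a 1 Heart1 cell held 90 of the 96 Isg15 UMIs and 22 of the 23 Ifit3 UMIs. Ifi44 was at 0.77 and 0.66 (adjusted p 0.595). Lower genes outside class II were Gngt2, a G protein gamma subunit (-1.48 in Heart1 and -0.66 in Heart2, mean -1.07 ± 0.27 SE), Cyp4f18, a fatty acid hydroxylase (-1.60 in Heart1 and -0.64 in Heart2, mean -1.12 ± 0.36 SE), the calcium channel subunit Orai3 (-0.95 in Heart1 and -0.76 in Heart2, mean -0.85 ± 0.29 SE), Fgd4 (-0.76 in Heart1 and -0.67 in Heart2, mean -0.72 ± 0.24 SE), the pentose phosphate enzyme Tkt (-0.80 in Heart1 and -0.62 in Heart2, mean -0.71 ± 0.21 SE) and Bex3 (-0.75 in Heart1 and -0.59 in Heart2, mean -0.67 ± 0.33 SE), with adjusted p-values from 0.266 to 0.617, so none was called. Retnla was lower at -0.89 and -1.20, but in Heart1 it rested on 2 cells a group, and without the highest cell it was at 1.46.

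Fibroblasts of the same libraries, split the same way (100 with and 106 without Cdkn1a in Heart1, 274 and 665 in Heart2), gave no called difference from the macrophages. The interaction test of limma called 0 of 2907 genes (0.0%), with 153 at an unadjusted p under 0.05 and a smallest adjusted p of 0.185. Class II RNA was at a background level in fibroblasts (H2-Aa 14.3 and 2.66 CPM), so its fibroblast differences of -0.02 and -0.07 have little room, and the macrophage minus fibroblast difference was -1.25 ± 0.18 SE (adjusted p 0.185). Dusp1 stood at 0.46 and 0.12 in fibroblasts (difference between classes 1.55 ± 0.22 SE, adjusted p 0.185), Atf3 at 1.86 and 0.96 and Zfp36 at 1.27 and 0.85. Bax, at 0.64 and 0.73, stood beside 0.66 and 0.62 in macrophages. Phlda3 was higher with Cdkn1a in fibroblasts too, at 0.52 and 0.73, with an interaction adjusted p of 0.516 at 20 CPM.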

How the data were processed

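Droplet single-cell libraries of mCherry+ cells from aged p16-FDR hearts were read from 1 table of the whole series. The authors deposited natural log values, ln(1 + a gene's UMIs scaled to a fixed cell total). Cell Ranger 3.0.2 and mm10 are named per the submitters' processing notes, and the normalizing tool is not given in the sources used here. Inverting the log gave whole UMIs for 4459440 of 4459440 values above 0 (tolerance 1e-06), and 0 columns were left out. Scrublet (scanpy 1.11.5) marked 10 cells in Heart1 and 3 in Heart2, of which 2 macrophages had Cdkn1a and 2 did not, and they stayed in.

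Each cell's CPM was averaged over the cells of a library and Cdkn1a status, which gave 4 values a gene. Limma 3.58.1 (R 4.3.3) was fitted on log2(mean CPM + 20) of genes with a mean of at least 50 CPM, with the library as a block and a trended spread. The library pairs the groups by construction, since cells with and without Cdkn1a share it. Cdkn1a and the 8 genes of the rule were left out of the tests. P-values were adjusted over all genes by Benjamini-Hochberg, with 0.05 as the threshold. For status after thinning, each cell was drawn down to 3000 UMIs. For depth-matched cells the UMIs were summed over the cells of a library and status before scaling to CPM. The fit and the fold criterion were tested on simulated data with known changes.

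Named over all genes were the 12 higher and 12 lower with the largest smaller-of-both-libraries difference, among genes past 1.5-fold in both, that kept their direction after thinning, in depth-matched cells and without each group's highest cell, and had a UMI in at least 4 cells of the higher group in each library. To these came every tested member past the fold of the inhibitor, p53 and cyclin lists, up to 4 of each other list, and Cdkn2a, Cdkn2b, Trp53 and Mdm2 whatever their values, 39 genes in all. The genes that limma called, and other list members, were named after their values had been seen. The members, gene lists and tests were chosen with earlier results of these data known. Motif sequences are from RefSeq (GRCm38.p6).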

Additional observations from a re-analysis of the deposited data

How the results depend on the processing

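The number of genes that limma called with against without Cdkn1a, 13, was 42 with a pseudocount of 5 CPM, 115 at a mean of at least 20 CPM, 20 at 100 CPM and 105 with no filter. It was 33 with status and values both thinned, 55 in depth-matched cells, 36 with UMIs summed over cells and 31 with median ratio scaling. Leaving out cells with a fibroblast mean above 0.5 gave 57, predicted doublets 32 and the highest cell of each gene 87. With no replicate block, so without the pairing by library, it was 0, and with at least 2 Cdkn1a UMIs against none it was 0. Without the highest early response tercile, added after the data were seen, it was 6. The 71 genes past 1.5-fold in both libraries became 45 with a pseudocount of 50 CPM, 43 at 100 CPM, 123 with no filter, 139 with both thinned and 25 at 2-fold. With 1 library alone the count ran from 140 (without Heart1) to 806 (without Heart2). Thinned to 3000 UMIs, the Heart2 shares of Cdkn1a, and of Cdkn2a and Cdkn2b in cells with it, were 21%, 18.2% and 4.55%. Signs turned for Zfp36 without the highest early response tercile (-0.10), for Ifit3 with status thinned (-0.42), for Isg15 with status thinned (-0.80) or both thinned (-0.67), and for H2-DMa with class II evened between the groups, added after the data were seen (0.068). The cause of these changes was not tested. All 13 calls were also made in depth-matched cells and 8 of them with status read after thinning. Those fits borrowed 38.4 and 11.5 degrees of freedom from the spread of all genes, against 6.53 in the main fit. Keeping a call is easier there, so these counts do not show that the calls are free of depth. Depth limits the Cdkn1a call itself, as the lower thinned shares show.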
